A study of Rattus norvegicus with 6 samples.

Results

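The genes described here are 10 rat genes of the inflammasome and of pyroptosis, taken by symbol from the gene table: the sensors Nlrp3, Nlrc4 and Aim2, the adaptor Pycard, the proteases Casp1 and Casp4, the gasdermins Gsdmd and Dfna5, the cytokine Il18 and the rupture protein Ninj1. Dfna5 is the table's symbol for gasdermin E. All 10 were found among 19382 genes, and all 10 passed the filter on low counts that left 14959 genes for testing. The study sequenced RNA from brain tissue of rats, with 3 libraries in a hypoxia-ischemia (HI) group and 3 in a control group. The series text describes SD rats that underwent 2.5 h of ischemia-hypoxia at an age of 7 days, which models brain injury around birth, and normal rats. The labels give neither the brain region, the time from injury to sampling, nor the age or any sham surgery of the controls. They also do not say whether each library came from its own animal, so part of the spread behind the p-values could be technical.

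An inflammasome is a cytosolic complex that assembles when a sensor protein detects a microbial or damage signal, recruits the adaptor ASC (the product of Pycard) and activates caspase-1. Caspase-1 cleaves the precursors of interleukin-1 beta and interleukin-18 and cuts gasdermin D, whose released fragment forms pores in the plasma membrane, and the lytic death that follows is called pyroptosis. Most of these proteins are regulated after translation by assembly and cleavage, which RNA levels do not measure. In brain, microglia and other phagocytes are the best known source of the NLRP3 inflammasome.

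Libraries held 13922663 to 14927469 reads. A count of 0 in a library allows up to 3 reads, which corresponds to 0.182 to 0.201 CPM in HI and 0.221 to 0.227 CPM in control libraries, counting error only. CPM denotes read counts divided by the TMM-scaled library size. Some libraries stood apart by features that the labels do not name. Summed choroid plexus markers ran from 183 to 15342 CPM in HI and from 7.11 to 2180 CPM in control libraries, with HI 2, HI 3 and control 2 above 1000 CPM. Reads of Y-linked genes numbered 1715 in HI 2, 1824 in HI 3 and 1356 in control 3, and at most 3 in the other libraries. Each group thus mixed libraries with and without such reads, so its libraries did not all come from the same animal. The sexes were also not balanced between the groups. Neuron markers identified the tissue as brain, with summed levels of 3103 to 5653 CPM in HI and 8081 to 9846 CPM in control libraries, and 4 of 12 of them fell (Tubb3 with the most reads, Rbfox3 with the fewest). For 11 of these 12 markers every HI library lay below every control, as for 3114 of all 14959 tested genes. Among these markers Slc17a7, a glutamate transporter of cortical excitatory neurons, had 38, 985 and 843 reads in HI, with HI 1 far below the others, against 6259, 6945 and 5688 reads in control libraries (edgeR adjusted p = 0.0529), whereas Gad1 of inhibitory neurons had 5465, 4108 and 2691 reads in HI, against 1495, 1938 and 4677 reads in control libraries. The labels do not give the brain region of a library, so a difference in the tissue sampled and an effect of HI cannot be told apart. Astrocyte markers summed to 2320 to 3145 CPM in HI and 1410 to 2415 CPM in control libraries (1 of 11 rose), oligodendrocyte markers to 721 to 813 CPM in HI and 935 to 1385 CPM in control libraries (2 of 11 fell), and vascular markers to 251 to 532 CPM in HI and 224 to 289 CPM in control libraries (1 of 11 rose). By the test given below, 6.83% of all tested genes rose and 7.04% fell, and a count of 1 of 11 is near that share.

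Of the 10 genes, 6 rose in HI and 0 fell (quasi-likelihood F test of edgeR, threshold of 0.05 on p-values adjusted by Benjamini-Hochberg), where 6.83% of all tested genes rose and 7.04% fell. Those that rose were the sensors Nlrp3 and Nlrc4, the adaptor Pycard, both inflammatory caspases and Gsdmd, by 2.98-fold to 4.68-fold. The HI libraries lay entirely above the controls for these 6 and for Il18, which makes 7 of 10 genes against 21.5% of all tested genes. Il18 did not pass the test. Aim2, Dfna5 and Ninj1 overlapped between the groups and did not pass either. The median log2 fold change was 1.66 over the 10 genes and 0.04 over all tested genes. Pycard had under 10 reads in every control and passed the filter through its HI reads. Nlrc4, Casp1, Casp4 and Il18 had 6, 9, 8 and 3 reads in their lowest control, so they too needed their HI reads to pass it. In RNA from whole tissue, more cells of a type and more RNA per cell cannot be told apart.

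**Figure D1:**
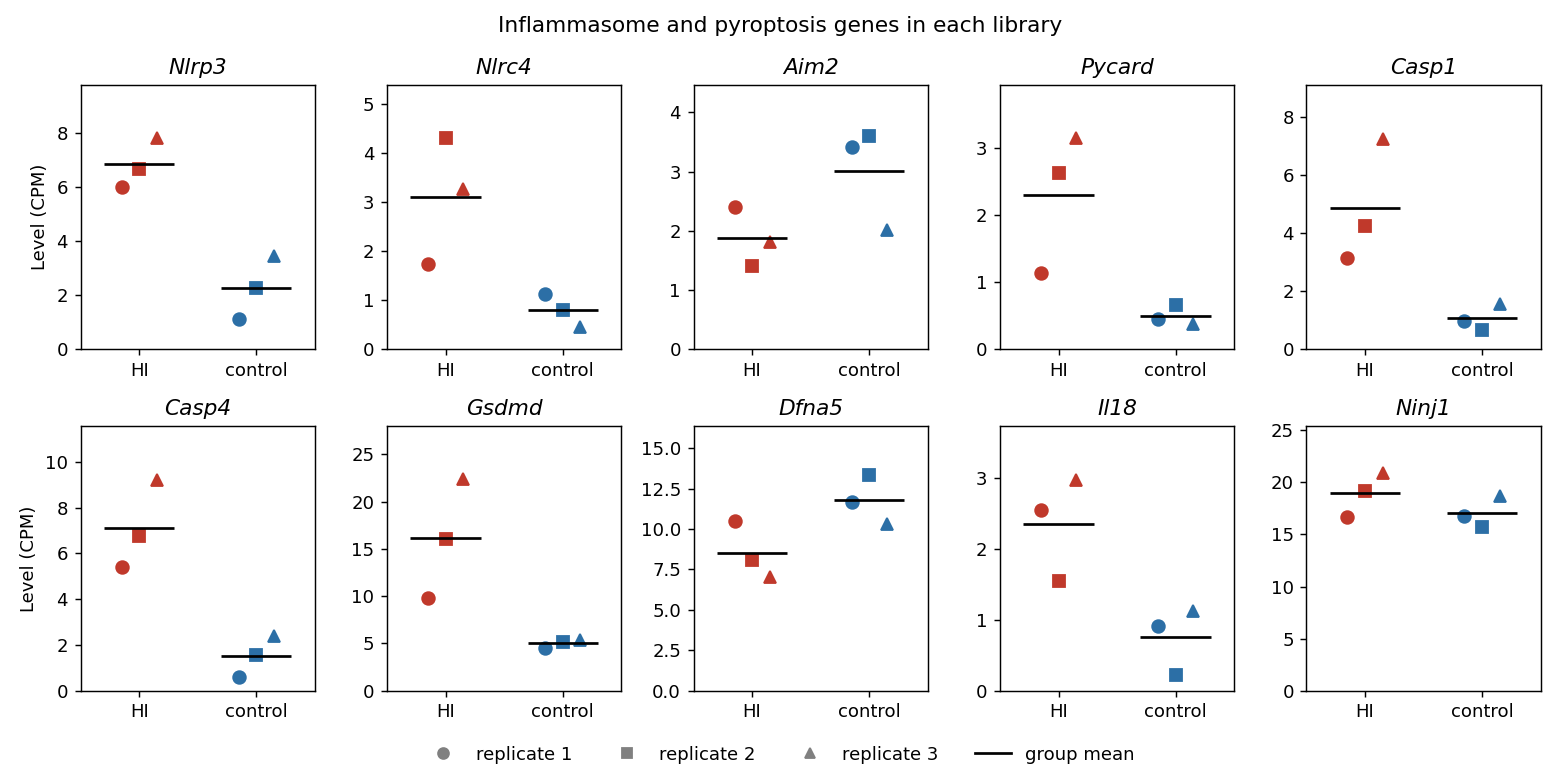
Level of each of the 10 genes in CPM (y axes, each from 0) in every library, HI left and control right, with replicates as symbols and the group mean as a line. The 3 HI points lie above the 3 control points for Nlrp3, Nlrc4, Pycard, Casp1, Casp4, Gsdmd and Il18, and the groups overlap for Aim2, Dfna5 and Ninj1.

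The calls sat close to the threshold and depended on which libraries were in the fit, as did those over all tested genes. With 1 library left out, the log2 fold changes of the 6 genes ran from 1.22, for Nlrp3 without control 1, to 2.68, for Casp4 without control 3. By edgeR, 5 of the 10 genes rose without HI 1, where 13.7% of all tested genes did, and 4 rose without control 3, where 3.96% did. Without HI 3 it was 0 of the 10 (1.62% of all), and without HI 2, control 1 or control 2 0 of the 10 and 0 of all tested genes rose. The edgeR adjusted p of the 6 genes then ran from 0.0108, for Gsdmd without HI 1, to 0.143, for Nlrp3 without control 2. No gene of the 10 changed sign in these fits, which for the 7 genes with separated groups was fixed by the values in advance. Limma-voom called 3 of the 10 as risen (3.69% of all), and DESeq2 called 6 (13.9% of all). With the summary of choroid plexus markers as a covariate, or with the presence of Y-linked reads as a term, 0 of the 10 genes rose by edgeR, where 0.12% and 2.23% of all tested genes did.

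**Figure D2:**
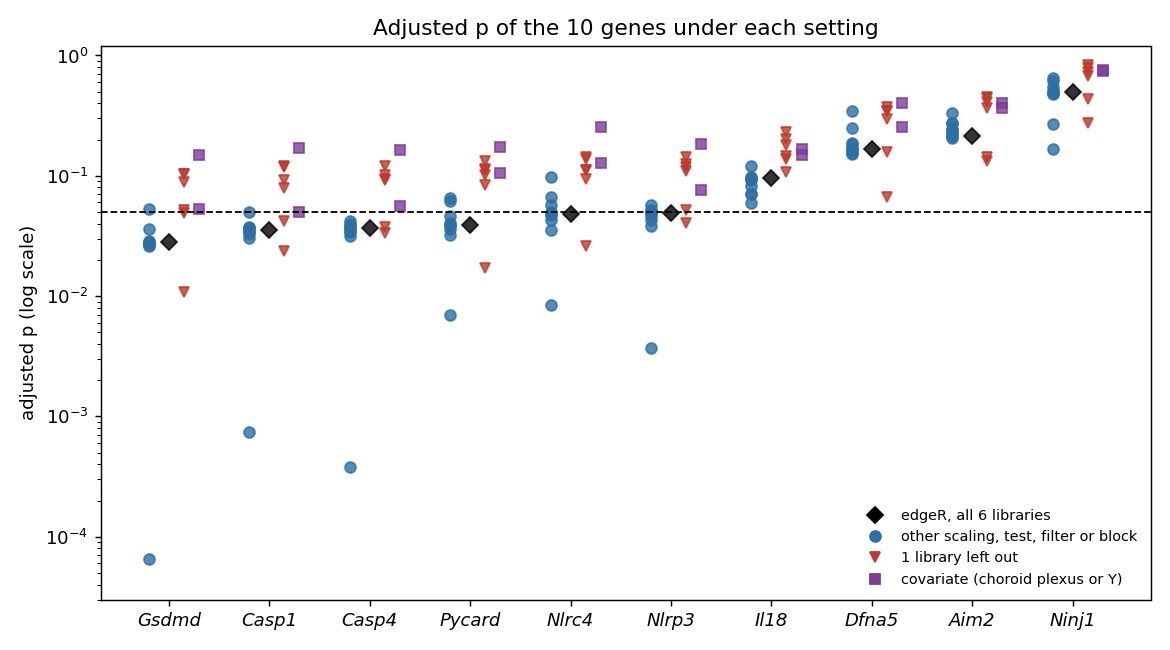
Adjusted p (y axis, log scale) of each gene with all 6 libraries in edgeR (diamonds), under other scalings, tests, filters or a block (circles), with 1 library left out (triangles) and with a covariate (squares); the dashed line is the threshold of 0.05. The 6 genes at the left straddle the line, and Il18, Dfna5, Aim2 and Ninj1 lie above it in every setting.

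Window sequences upstream of a gene's start were available for 3 of the genes that rose, Casp1, Nlrp3 and Pycard, and for Aim2, the sensor that did not. These 4 of 7 available windows were chosen by result, since the first 3 genes rose and Aim2 did not pass. A contrast of motifs between them is therefore no evidence. Each runs 5' to 3' on the gene's strand from 250 bases before to 50 bases after the start in RefSeq (build GRCr8), at chr8:10872580-10872879 (plus strand) for Casp1, chr10:44827848-44828147 (plus) for Nlrp3, chr1:192033370-192033669 (minus) for Pycard and chr13:88398372-88398671 (plus) for Aim2. Capitals mark matches to any of the searched motifs.
Casp1: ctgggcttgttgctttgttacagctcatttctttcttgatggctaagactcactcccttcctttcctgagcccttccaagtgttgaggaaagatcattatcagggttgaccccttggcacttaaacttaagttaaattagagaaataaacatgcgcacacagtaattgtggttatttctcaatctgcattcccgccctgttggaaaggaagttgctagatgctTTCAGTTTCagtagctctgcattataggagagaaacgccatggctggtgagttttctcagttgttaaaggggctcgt
Nlrp3: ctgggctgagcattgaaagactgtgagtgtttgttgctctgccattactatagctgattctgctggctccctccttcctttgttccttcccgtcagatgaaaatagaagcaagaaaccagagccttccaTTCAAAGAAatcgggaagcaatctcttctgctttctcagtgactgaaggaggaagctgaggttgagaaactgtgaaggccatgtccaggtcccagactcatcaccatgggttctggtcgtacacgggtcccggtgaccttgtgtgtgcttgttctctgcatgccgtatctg
Pycard: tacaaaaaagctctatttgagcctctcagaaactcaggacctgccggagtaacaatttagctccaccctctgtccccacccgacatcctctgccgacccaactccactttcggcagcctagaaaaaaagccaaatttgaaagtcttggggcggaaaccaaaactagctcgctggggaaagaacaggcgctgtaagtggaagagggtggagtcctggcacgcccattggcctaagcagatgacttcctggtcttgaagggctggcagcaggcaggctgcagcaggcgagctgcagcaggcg
Aim2: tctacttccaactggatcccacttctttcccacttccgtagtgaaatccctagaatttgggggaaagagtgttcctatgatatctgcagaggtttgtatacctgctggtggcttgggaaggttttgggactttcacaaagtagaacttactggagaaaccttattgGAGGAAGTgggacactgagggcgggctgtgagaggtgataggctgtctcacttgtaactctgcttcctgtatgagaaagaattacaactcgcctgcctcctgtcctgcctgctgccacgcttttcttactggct
The searched letters, on both strands, were GAAANNGAA for an interferon-stimulated response element, GGANNTTCC for an NF-kB site, TTCNNNGAA for a STAT site, GAGGAAGT for a PU.1 site and TGANTCA for an AP-1 site, and no match overlapped another. The Casp1 window held TTCAGTTTC, an interferon-response match on the opposite strand, and 9.71% of 33469 windows of that length hold such a match. In the Nlrp3 window the match was TTCAAAGAA, of the STAT pattern (8.87% of windows), and in the Aim2 window it was GAGGAAGT, of the PU.1 pattern (2.42% of windows). The Pycard window held none of these letters. The NF-kB letters (4.09% of windows) and the AP-1 letters (7.33% of windows) were in none of these 4 windows. Of the other 3 matched windows, that of Il18 held TGAATCA, an AP-1 match, and those of Dfna5 and Ninj1 held none of the searched letters. A match describes letters and shows no binding.

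Nlrp3, the sensor that responds to potassium efflux, extracellular ATP and membrane damage, had 90, 104 and 129 reads in HI 1, 2 and 3, against 15, 31 and 46 reads in controls 1, 2 and 3. The lowest HI library held more reads than any control, and control 3 was the highest control. Its level was 6.84 ± 0.909 CPM in HI and 2.29 ± 1.15 CPM in control libraries (SD, n = 3 each), a log2 fold change of 1.58 ± 0.41 (SE, edgeR adjusted p = 0.0493). Nlrc4, which joins NAIP proteins that bind bacterial flagellin and secretion needles, had 26, 67 and 54 reads in HI, against 15, 11 and 6 reads in control libraries. HI 2 was its highest library, unlike for the other genes that rose. Nlrc4 rose by 1.95 ± 0.49 on the log2 scale (SE, edgeR adjusted p = 0.0480), and stood at 3.11 ± 1.29 CPM in HI and 0.798 ± 0.343 CPM in control libraries (SD, n = 3 each).

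Aim2, a sensor of cytosolic double-stranded DNA, had 36, 22 and 30 reads in HI, against 45, 49 and 27 reads in control libraries. HI 1 lay above control 3, which was within the range of HI, and controls 1 and 2 were the highest. Its log2 fold change was -0.68 ± 0.36 (SE), with a 95% interval of -1.53 to 0.17 and an edgeR adjusted p = 0.215. That interval holds no rise beyond 0.17 on the log2 scale, whereas the interval of Nlrp3 was 0.60 to 2.55. Within a library, where scaling plays no part, there were 2.50, 4.73 and 4.30 Nlrp3 reads per Aim2 read in HI and 0.333, 0.633 and 1.70 in control libraries. The HI ratios were all higher (exact permutation test, two-sided p = 0.1, the smallest that 3 against 3 allows, and 0.15 after Benjamini-Hochberg adjustment over 3 such ratios chosen after the values were seen).

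Pycard encodes ASC, the adaptor that joins sensors of the pyrin-domain type to caspase-1. It had 17, 41 and 52 reads in HI, against 6, 9 and 5 reads in control libraries. All controls were low and HI 1 was nearer to them than HI 2 and HI 3 were. The level was 2.31 ± 1.05 CPM in HI and 0.497 ± 0.149 CPM in control libraries (SD, n = 3 each), and the log2 fold change 2.20 ± 0.50 (SE, edgeR adjusted p = 0.0391).

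Casp1, the protease that matures interleukin-1 beta and interleukin-18, had 47, 66 and 120 reads in HI, against 13, 9 and 21 reads in control libraries. HI 3 held more reads than HI 1 and HI 2 together. Casp1 stood at 4.88 ± 2.14 CPM in HI and 1.07 ± 0.461 CPM in control libraries (SD, n = 3 each), a log2 fold change of 2.18 ± 0.47 (SE, edgeR adjusted p = 0.0351). Casp4, whose mouse counterpart is the caspase-11 that binds lipopolysaccharide inside the cell, had 81, 105 and 152 reads in HI, against 8, 21 and 32 reads in control libraries. The order HI 1, HI 2, HI 3 was the same as for Casp1. Casp4 had the largest fold of the 10 genes, 4.68-fold, with 7.12 ± 1.92 CPM in HI and 1.52 ± 0.895 CPM in control libraries (SD, n = 3 each) and an edgeR adjusted p = 0.0369. Casp1 and Casp4 are neighbouring genes in the RefSeq gene table, followed by Casp12. There were 1.72, 1.59 and 1.27 Casp4 reads per Casp1 read in HI and 0.615, 2.33 and 1.52 in control libraries, ranges that overlap (exact permutation test, two-sided p = 0.8). Casp12, named here for its position beside them, had 9, 16 and 69 reads in HI and 6, 3 and 5 reads in control libraries and was too low to be tested. None of the 10 genes had entries other than whole numbers, so no sign of reads divided with a similar gene was present for them.

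Gsdmd, the pore-forming substrate of both caspases, had 147, 250 and 370 reads in HI, against 59, 70 and 72 reads in control libraries. The controls were closely grouped and the HI libraries were spread widely, with HI 3 the highest. The level was 16.1 ± 6.29 CPM in HI and 5.0 ± 0.479 CPM in control libraries (SD, n = 3 each). Its log2 fold change was 1.69 ± 0.32 (SE, edgeR adjusted p = 0.0281, the smallest of the 10 genes). Dfna5, a gasdermin cut by caspases other than caspase-1, had 157, 126 and 116 reads in HI, against 154, 181 and 138 reads in control libraries. HI 1 lay among the controls and the other HI libraries below them. Dfna5 had a log2 fold change of -0.46 ± 0.21 (SE) with a 95% interval of -0.98 to 0.05 (edgeR adjusted p = 0.168). Per Dfna5 read there were 0.936, 1.98 and 3.19 Gsdmd reads in HI and 0.383, 0.387 and 0.522 in control libraries. The HI ratios were again all higher, with the smallest exact permutation p that 3 against 3 allows (two-sided p = 0.1, adjusted 0.15). This pair, like that of Nlrp3 and Aim2, was chosen after the values were seen. The adjustment does not cover that choice, so neither p-value is independent evidence.

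Il18, the cytokine precursor cut by caspase-1, had 38, 24 and 49 reads in HI, against 12, 3 and 15 reads in control libraries. All HI libraries were above all controls, but HI 2 was low and the 3 reads of control 2 are at the limit that a count of 0 allows. Il18 had 2.35 ± 0.732 CPM in HI and 0.751 ± 0.471 CPM in control libraries (SD, n = 3 each) and a log2 fold change of 1.64 ± 0.58 (SE, edgeR adjusted p = 0.0958). The other caspase-1 substrate among the cytokines, Il1b, had 1, 5 and 8 reads in HI and 0, 2 and 4 reads in control libraries. It did not pass the filter, and at these counts no difference could be detected (edgeR adjusted p = 0.584 with no filter).

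Ninj1, the membrane protein whose clustering ruptures the plasma membrane late in lytic death, had 250, 299 and 345 reads in HI, against 221, 213 and 250 reads in control libraries. After scaling, Ninj1 had 16.7, 19.2 and 20.9 CPM in HI 1, 2 and 3, against 16.7, 15.7 and 18.7 CPM in controls 1, 2 and 3. HI 1 thus lay within the range of the controls. Ninj1 averaged 18.9 ± 2.11 CPM in HI and 17.0 ± 1.54 CPM in control libraries (SD, n = 3 each), with a log2 fold change of 0.15 ± 0.15 and a 95% interval of -0.21 to 0.51 (edgeR adjusted p = 0.493). With TMM scaling that interval reached no further than 0.51. The lower bound for Gsdmd was 0.92, and the difference between these genes was not tested. With scaling by total counts, which moves the median of all genes by 0.19 on the log2 scale, the log2 fold change of Ninj1 was 0.35 ± 0.17 (SE).

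**Figure D3:**
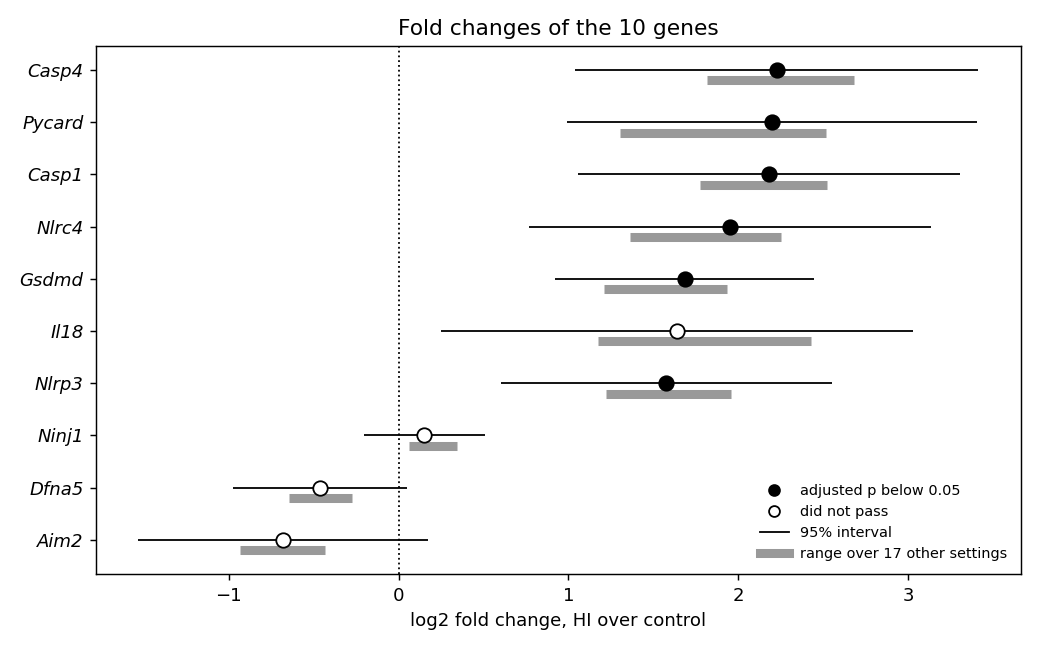
Log2 fold change of HI over control (x axis) for each of the 10 genes, filled where the edgeR adjusted p was below 0.05, with the 95% interval as a thin line and the range over 17 other settings as a grey bar. Casp4, Pycard and Casp1 lie highest at 2.23, 2.20 and 2.18, while the intervals of Ninj1, Dfna5 and Aim2 include 0.

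Within subsets of the libraries the sizes of the differences varied; that the 7 genes with separated groups are higher in HI in each subset follows from that separation and adds nothing to it. Among libraries with Y-linked reads (HI 2 and HI 3 against control 3), the log2 ratio of mean CPM lay between 1.01 for Il18 and 3.08 for Nlrc4. Among those without them (HI 1 against controls 1 and 2) it lay between 0.84 for Nlrc4 and 2.33 for Casp4. In the libraries with over 1000 CPM of choroid plexus markers (HI 2 and HI 3 against control 2), it was 1.67 for Nlrp3, 3.12 for Casp1 and 1.90 for Gsdmd. In the others (HI 1 against controls 1 and 3), it was 1.39 for Nlrp3, 1.30 for Casp1 and 0.996 for Gsdmd. Each subset has a lone library on 1 side, so its spread is not known. Aim2 ran from -1.16 to -0.17, Dfna5 from -0.82 to -0.07 and Ninj1 from -0.08 to 0.36. The 4 subsets reuse the same 6 libraries and are not independent of each other.

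Many markers of phagocytes, but not all, rose with these genes. Of 19 tested microglia markers 13 rose and 0 fell, where 6.83% of all tested genes rose and 7.04% fell. The summed level of the list (20 of 21 genes in the table, Csf1r with the most reads and Siglech with the fewest, under 10 in every library) was 476, 612 and 792 CPM in HI 1, 2 and 3 and 207, 229 and 305 CPM in controls 1, 2 and 3. The 6 tested microglia markers that did not pass were P2ry12, P2ry13, Tmem119, Sall1, Gpr34 and Olfml3. Their log2 fold changes were -0.13, -0.02, 0.47, 0.44, 0.72 and 1.28, in that order. The order of the HI libraries, HI 1 lowest and HI 3 highest, was the one seen for Nlrp3, Pycard, Casp1, Casp4 and Gsdmd, and also that of the choroid plexus, vascular, neutrophil and monocyte, and lymphocyte sums. Border macrophage markers summed to 21.9 to 65.4 CPM in HI and 10.1 to 20.5 CPM in control libraries (8 of 9 genes in the table, 3 of 6 tested rose, Lyve1 highest and Pf4 lowest in reads). Neutrophil and monocyte markers summed to 13.9 to 47.6 CPM in HI and 4.57 to 5.60 CPM in control libraries (13 of 15 genes in the table, 3 of 4 tested rose, Lcn2 highest and Camp lowest), and S100a9, Mpo, Ly6c, Cxcr2, Ngp, Camp and Mmp8 had under 10 reads in every library. Mmp9, Plac8 (with shared reads) and Csf3r were the 3 that rose, by 11.1-fold, 7.50-fold and 3.03-fold. Fcnb had 2, 20 and 14 reads in HI, against 0, 1 and 1 reads in control libraries, and S100a8 3, 1 and 12 reads in HI, against 0 reads in each control library. Lymphocyte markers summed to 8.49 to 20.2 CPM in HI and 4.77 to 12.5 CPM in control libraries (10 of 11 genes in the table, 1 of 2 tested rose, Cd4 highest and Cd3e lowest), with Cd3e, Cd3d and Cd3g at no more than 1 read in a library. Cd8a was the one that rose, with 23, 68 and 69 reads in HI, against 1, 4 and 6 reads in control libraries (log2 fold change 3.58, edgeR adjusted p = 0.0275). Mmp9, Plac8, Cd8a and the border macrophage markers Folr2, Clec10a and Cd163 had under 10 reads in every control. They passed the filter through their HI reads. In these 3 lists the filter thus favoured genes high in HI, so the shares of tested markers that rose add no support. The part of cell numbers in the rises was not tested.

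Set against the microglia sum of the same library, the genes separated into 3 patterns, given as values with no test. Casp1 was 0.661%, 0.693% and 0.918% of the microglia sum in HI 1, 2 and 3, and 0.476%, 0.289% and 0.516% in the controls. Casp4 was 1.14%, 1.10% and 1.16% in HI, and 0.293%, 0.674% and 0.787% in the controls. Both caspases were thus higher in every HI library relative to this sum, to which Csf1r, with a rise of 2.35-fold, contributed the most. Relative to single markers this depended on the marker, since C1qa, C1qb, C1qc, Ptprc and Ly86 had larger fold changes (5.16-fold to 7.44-fold) than Casp1 and Casp4 (4.53-fold and 4.68-fold). Nlrp3, Nlrc4, Pycard, Gsdmd and Il18 overlapped between the groups on this scale, with Gsdmd at 2.51% ± 0.396 in HI and 2.06% ± 0.254 in control libraries and Nlrp3 at 1.12% ± 0.140 in HI and 0.892% ± 0.304 in control libraries (SD, n = 3 each). Aim2, Dfna5 and Ninj1 were lower in every HI library on this scale, at 0.249, 0.298 and 0.441 of the control ratio. The microglia sum was itself higher in every HI library, so a gene of unchanged level comes out lower on this scale by construction. Their place in this pattern therefore shows no fall of these genes.

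**Figure D4:**
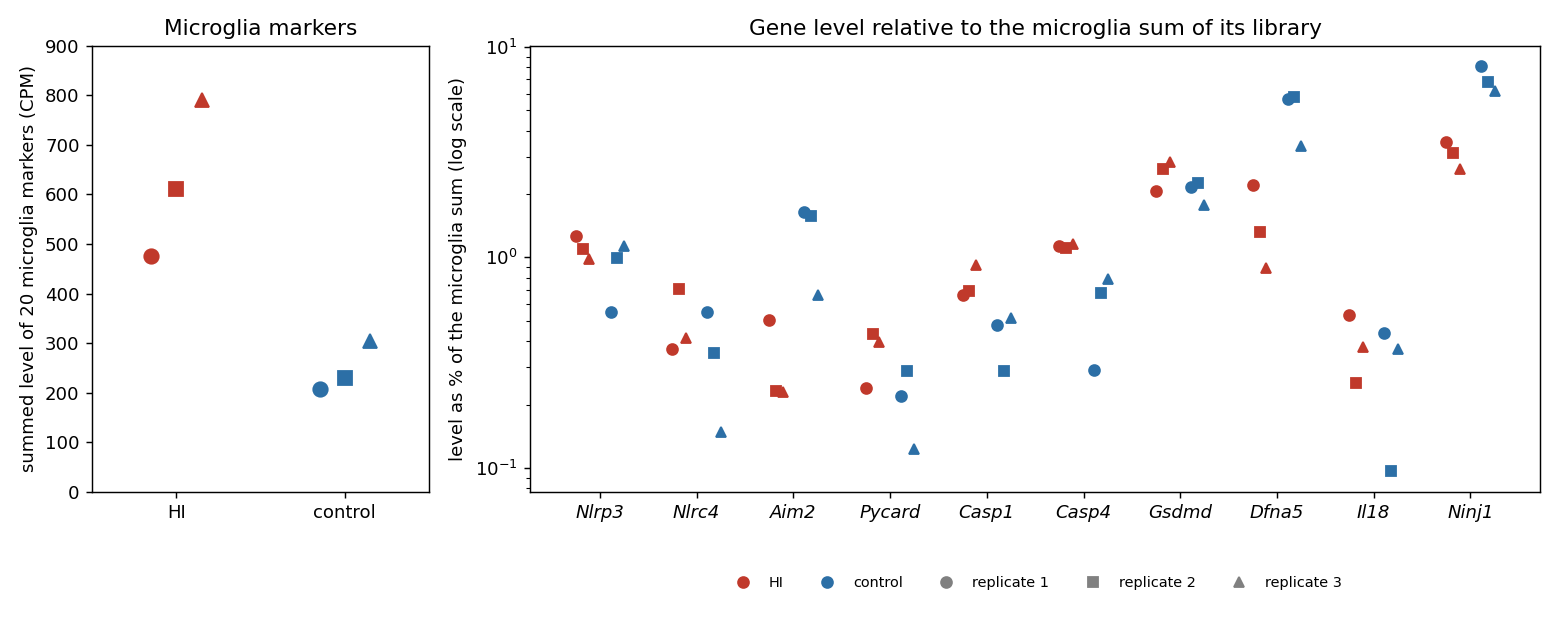
Left, summed level of 20 microglia markers in CPM in each library, HI left and control right. Right, level of each gene as a percentage of that sum in the same library (y axis, log scale), with symbols for replicates; Casp1 and Casp4 are higher in all HI libraries, Aim2, Dfna5 and Ninj1 lower, and the other 5 genes overlap.

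The genes whose pattern over the 6 libraries was nearest to a gene that rose, by the root mean square distance of centred log2 CPM among 14527 other genes, are a description. For Casp1 they were XAF1, Slc14a1 and Ifi27 (distances of 0.127, 0.159 and 0.164), and for Gsdmd Pros1, Nfe2l2 and Sumf2 (0.0722, 0.0869 and 0.0874). Pycard was nearest to RGD1564325, Cryab and Ifi30 (0.0381, 0.0775 and 0.111), and Nlrp3 to Abi3bp, Igsf1 and C5ar2 (0.160, 0.192 and 0.204). The nearest genes were farther away for Nlrc4 (Trim25, Csrnp1 and Slamf8, 0.228 to 0.250) and for Casp4 (Cyp4v3, Apobec3b and Acta2, 0.269 to 0.279).

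Of the other genes of the pathway, 98 in 7 lists are reported here, of which 93 were in the table and 76 could be tested. Of these 19 rose, with a median log2 fold change of 0.61, where 6.83% of all tested genes rose with a median of 0.04 over all. Of 9 tested sensors 3 rose and 0 fell (median 0.95). Nlrc5, a regulator of MHC class I genes, rose 4.09-fold, with 5.31 ± 1.61 CPM in HI and 1.29 ± 0.433 CPM in control libraries (SD, n = 3 each). Nod1, a sensor of bacterial peptidoglycan, rose 2.47-fold, and Nlrp1a, which forms an inflammasome in rodents, 2.42-fold. Their edgeR adjusted p ran from 0.0282 to 0.0382. The NAIP genes Naip5 and Naip6, named after their values were seen, shared reads with similar genes and did not pass (edgeR adjusted p = 0.0836 and 0.0815).

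Among 17 activators and partners of NLRP3 5 rose and 0 fell (median 0.61). The interferon-induced GTPases Gbp2 and Gbp5 rose 8.31-fold and 5.0-fold. Txnip, a thioredoxin-binding protein, rose 3.20-fold, and P2rx7, the ATP-gated channel upstream of NLRP3, 2.10-fold, with shared reads. A list of regulators, lysosomal cathepsins and inhibitor of apoptosis proteins had 5 of 12 genes that rose and 0 that fell (median 1.36). Trim30, which restrains NLRP3 in mouse, rose 4.62-fold, the antioxidant transcription factor Nfe2l2 3.19-fold, and the cathepsins Ctsc and Ctsb 5.75-fold and 1.77-fold. Genes that activate NLRP3 and a gene that restrains it were thus both among those that rose.

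Of the 8 tested gasdermins and cell death genes reported here 1 rose (median 0.70), a share near the 6.83% of all tested genes, and other genes of that list are not reported. Ripk3, the kinase of necroptosis, had 53, 174 and 201 reads in HI, against 13, 15 and 17 reads in control libraries, a rise of 7.95-fold (edgeR adjusted p = 0.0243). In the interleukin-1 family and its receptors 2 of 9 genes rose and 0 fell (median 0.54): Il1r1, the signalling receptor of interleukin-1, by 5.18-fold, and Il1rl1, the receptor of interleukin-33, by 2.44-fold. The receptor gene Il1r1 had 166, 391 and 617 reads in HI, against 55, 73 and 62 reads in control libraries, whereas reads of Il1b, 1 of its ligands, were at most 8. Il1a, another ligand, named after its values were seen, had 0, 1 and 15 reads in HI, against 4, 0 and 1 reads in control libraries. It was too low to be tested. Of 17 genes of membrane repair and rupture 2 rose and 0 fell, with a median of 0.14, the lowest of the lists, and the share that rose was again near that of all tested genes. They were Anxa1, a phospholipid-binding annexin, at 6.79-fold and Dysf, the membrane repair protein dysferlin, at 3.25-fold, while the tested members of the ESCRT machinery that seals gasdermin pores did not pass. Of the 17 genes, 7 lay above the controls in every HI library, 1 below and 9 overlapped, where 21.5% of all tested genes lay above. Among ESCRT genes Vps4b and Pdcd6ip lay above (1.53-fold and 1.56-fold, edgeR adjusted p = 0.0548 and 0.0581) and Vps4a below (0.817-fold, 0.111).

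Of the axis named in the series title, Myd88 rose 2.94-fold (edgeR adjusted p = 0.0305), and Tlr4, Nfkb1 and Rela had log2 fold changes of 1.13 ± 0.33, 0.83 ± 0.26 and 0.33 ± 0.21 (SE) and did not pass. The lists follow the theme of that title and were chosen with earlier results known, so their direction is no independent evidence.

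**Figure D5:**
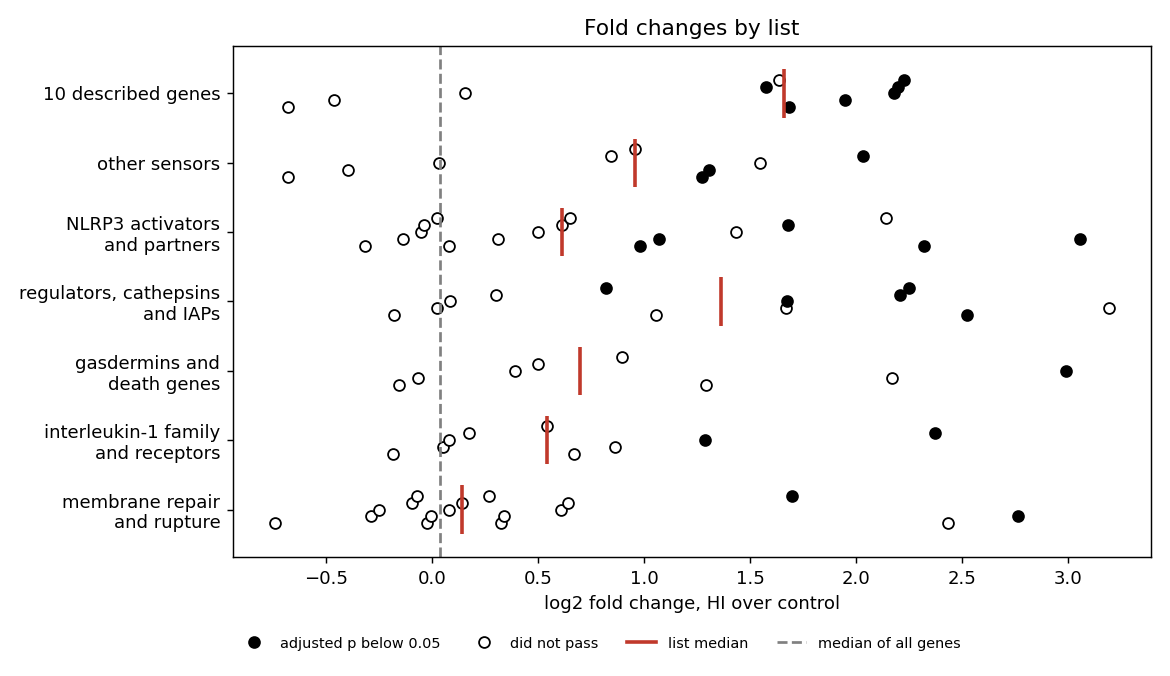
Log2 fold change of HI over control (x axis) of each tested gene reported here, by list, filled where the edgeR adjusted p was below 0.05, with the list median in red and the median of all genes dashed at 0.04. The 10 described genes have the highest median at 1.66, and membrane repair genes the lowest at 0.14.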

How the data were processed

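RNA of rat brain tissue was measured in 3 HI and 3 control libraries. The deposited table holds estimated counts, not scaled, per the file headers. HISAT2 2.1.0, SAMtools 1.10, StringTie 2.2.1 and assembly Rnor 6.0 are named in the submitters' processing notes, per the labels. How reads were counted, with which annotation and strand setting, is not given in these sources. Entries that were not whole (tolerance 1e-09) made up 8.87%. Without strand, reads of a gene and of an antisense partner cannot be told apart.

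Groups came from the sample titles. Counts were rounded, filtered with filterByExpr (minimum count 10), scaled by TMM and tested with edgeR 4.0.16 (R 4.3.3; quasi-likelihood F test), group as the only term, with Benjamini-Hochberg adjustment over 14959 genes and a threshold of 0.05. The SE came from the F statistic. Scripts were tested on simulated data. The 10 genes, the lists and the rule for named genes (up to 4 called genes of smallest p per list, or 2 where none was called) were chosen with earlier results of these data known. Some genes of the gasdermin and cell death list are not reported here and were left out of its counts and median. Alternatives were 3 other scalings, DESeq2 1.42.0, limma-voom (limma 3.58.1), 2 filters, a robust dispersion, the replicate number as a block, each library left out, and 2 covariates added after seeing the data. Promoter windows were matched by gene number for 7 of 10 genes (not Nlrc4, Casp4 and Gsdmd).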

Additional observations from a re-analysis of the deposited data

How the results depend on the processing

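With 2074 genes called in all, 6 of the 10 described and 19 of the tested genes in the other lists, the counts changed as follows. DESeq2 called 4200 in all and 31 in the lists. Limma-voom called 1371 in all, 3 of the 10 (Casp1, Casp4 and Nlrp3) and 8 in the lists. Leaving out 1 library each, edgeR called 0 to 3689 genes in all, 0 to 5 of the 10 and 0 to 35 in the lists. In all it called 0 without HI 2, 0 without control 1, 1 without control 2, 644 without HI 3, 1694 without control 3 and 3689 without HI 1, where 3962 to 6391 genes had an unadjusted p below 0.05. Added after seeing the data, the choroid plexus covariate left 44 in all, 0 of the 10 and 0 in the lists, and the Y-linked term 774, 0 and 5. Of all called genes the share that was higher also moved with scaling, with 1446 higher and 804 lower by upper quartiles and 2161 and 730 by total counts, against 1021 and 1053 with TMM.

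With the replicate block, 1723 genes were called in all and 3 of the 10 (Casp1, Casp4 and Gsdmd). Same-numbered libraries correlated at 0.24, 0.07 and -0.15 in their deviations from the group mean, so the numbers are not taken to pair the samples.

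No gene of the 10 changed sign under any of the 17 alternatives. For the 7 genes with separated groups this adds little. Their separation fixed the sign in the leave-out fits, and the alternatives reuse the same libraries. Of the 17 alternatives, 11 called Casp1, 11 Casp4, 10 Gsdmd, 8 Pycard, 7 Nlrp3, 7 Nlrc4 and 0 each Il18, Aim2, Dfna5 and Ninj1. Il1b had too few reads to be tested.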
